A study of Mus musculus with 8 samples.

Results

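The genes of glycolysis and of the hypoxia response were followed in E14 mouse embryonic stem cells (ESCs) as a group of 38 genes, chosen by symbol from the 50902 genes of the expression table. They comprise the enzymes that split glucose to pyruvate and lactate, the carriers that bring glucose in and lactate out, the regulators of this flux, the transcription factor subunit Hif1a with its prolyl hydroxylases, and further genes known to be induced by low oxygen. RNA-seq was performed on 4 libraries of ESC + F/H-BAZ2ArWT and 4 libraries of ESC + F/H-BAZ2ArΔTAM. Both are E14 lines grown in N2B27 medium with LIF and 2i, and both carry a Flag- and HA-tagged Baz2a transgene, inserted by the piggyBac transposase and made resistant to the siRNA. The transgene encodes BAZ2A wt in the former and BAZ2A without its TAM domain in the latter, and cells of both lines were transfected with siRNA against endogenous Baz2a and collected 3 days later. BAZ2A is the large subunit of a nucleosome remodelling complex, and TAM is its RNA-binding domain. The F/H lines were isolated as single-cell clones and picked by western blot for transgene levels close to those of endogenous BAZ2A, so that the transgene and the history of a line cannot be told apart. The labels give replicate numbers but do not say whether the replicates are separate cultures, and p-values then measure the spread between these libraries only, which may be technical.

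In glycolysis, hexokinases trap glucose in the cell, phosphofructokinase commits it to breakdown, and the later enzymes recover ATP and pass the electrons to NAD, which lactate dehydrogenase regenerates. HIF-1 is a pair of HIF1A and ARNT, and oxygen-dependent prolyl hydroxylation marks HIF1A for destruction through VHL. When oxygen is scarce, HIF1A persists and binds short hypoxia response elements with a core of 5 bases (ACGTG, with its variant GCGTG), and the glycolytic genes are classical targets. Mouse ESCs use glycolysis and respiration side by side in the naive state.

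The core letters were searched in the 5′ flanks of the genes to show what the group shares by sequence, since most members are textbook targets of the same factor. RefSeq windows of 300 bases (250 before and 50 after a start, build GRCm38.p6) were given for 35 of the 38 members, without Slc2a3, Bnip3l and Ndrg1, and Ero1l was matched as Ero1a. Where a gene has several starts, the window nearest to the 5′ end of the deposited gene was taken. ACGTG was found on either strand in 20 members (57.1%) against 19.6% of all 32851 windows, and GCGTG in 20 members (57.1%) against 32.4%. Either was found in 27 members (77.1%), against 43.8% of all windows and 65.6% of the 7795 windows of genes tested here. For each motif alone, the share over genes tested was not computed. Base composition differs along with this, the median GC content being 65.0% over the members, 61.0% over the genes tested and 52.7% over all windows, and its part in the counts was not tested. A match is a description of letters and not a binding site. Of the genes described below as lower in ESC + F/H-BAZ2ArΔTAM, 7 of 9 had a match, against 2 of 2 higher genes, 12 of 17 tested genes without a call and 6 of 7 genes too low to test. The windows of the 4 lower genes with the most central roles in glycolysis and its mitochondrial exit are printed first, followed by those of the 2 higher genes, each 5′ to 3′ on the strand of its gene with both motifs in capitals wherever they stand on the printed or on the opposite strand.
Pfkp (chr13:6648722-6649021, minus strand): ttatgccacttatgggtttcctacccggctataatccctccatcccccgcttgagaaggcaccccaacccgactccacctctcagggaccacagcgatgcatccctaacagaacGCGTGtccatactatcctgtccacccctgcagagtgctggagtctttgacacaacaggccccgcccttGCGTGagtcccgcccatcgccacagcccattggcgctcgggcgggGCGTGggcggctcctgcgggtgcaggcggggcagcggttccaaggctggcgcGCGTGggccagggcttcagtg

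Pgk1 (chrX:106186850-106187149, plus strand): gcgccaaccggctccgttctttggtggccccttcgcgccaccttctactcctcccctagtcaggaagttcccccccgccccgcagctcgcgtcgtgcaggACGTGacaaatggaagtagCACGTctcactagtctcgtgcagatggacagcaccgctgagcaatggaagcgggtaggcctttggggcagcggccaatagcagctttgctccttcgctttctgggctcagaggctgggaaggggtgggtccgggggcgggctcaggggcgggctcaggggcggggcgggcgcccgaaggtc

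Ldha (chr7:46845554-46845853, plus strand): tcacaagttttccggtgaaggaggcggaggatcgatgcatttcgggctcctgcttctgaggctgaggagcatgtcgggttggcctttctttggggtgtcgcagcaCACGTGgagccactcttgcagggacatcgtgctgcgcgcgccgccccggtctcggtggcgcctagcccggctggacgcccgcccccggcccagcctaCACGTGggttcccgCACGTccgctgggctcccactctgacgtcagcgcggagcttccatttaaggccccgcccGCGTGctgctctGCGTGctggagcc

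Pdk1 (chr2:71872974-71873273, plus strand): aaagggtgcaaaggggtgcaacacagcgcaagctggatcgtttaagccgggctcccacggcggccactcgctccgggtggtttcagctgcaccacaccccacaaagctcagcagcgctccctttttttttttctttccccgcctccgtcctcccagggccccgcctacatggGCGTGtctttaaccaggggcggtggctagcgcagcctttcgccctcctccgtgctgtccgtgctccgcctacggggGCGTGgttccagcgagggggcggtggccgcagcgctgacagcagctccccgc

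Kdm3a (chr6:71632868-71633167, minus strand): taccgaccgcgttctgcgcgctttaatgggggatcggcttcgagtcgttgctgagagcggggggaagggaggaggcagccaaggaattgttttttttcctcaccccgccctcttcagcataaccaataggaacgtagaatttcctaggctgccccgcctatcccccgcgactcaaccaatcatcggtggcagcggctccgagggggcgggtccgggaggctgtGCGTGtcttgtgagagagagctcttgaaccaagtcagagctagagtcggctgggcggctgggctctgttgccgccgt

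Egln1 (chr8:124949205-124949504, minus strand): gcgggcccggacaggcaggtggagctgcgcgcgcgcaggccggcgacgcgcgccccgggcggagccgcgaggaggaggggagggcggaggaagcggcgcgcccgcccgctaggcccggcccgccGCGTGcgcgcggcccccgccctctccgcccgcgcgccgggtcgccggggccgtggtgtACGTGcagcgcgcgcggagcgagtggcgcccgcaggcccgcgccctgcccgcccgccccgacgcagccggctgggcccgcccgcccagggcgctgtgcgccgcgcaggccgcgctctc

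Counting from the start as position 1 and the base before it as -1, the 4 matches of Pfkp, all GCGTG on the printed strand, begin at -136, -68, -23 and 30. Ldha has the most of the members, with 7 matches between -145 and 38, among them 2 palindromes CACGTG that each count as 2 overlapping matches, one on either strand. Its RefSeq start lies 4329 bases inside the deposited gene, whose own 5′ end has no window here. The same holds for Hif1a, with 3 matches (6492 bases), and Ankrd37, with 4 (5857 bases), whereas the start of each other matched member lay within 829 bases of the deposited 5′ end. Pgk1 has 2 ACGTG matches at -150 and -131, Pdk1 has 2 GCGTG matches at -78 and -2, and Kdm3a has 1 GCGTG match at -27. Egln1 has 1 of each, at -126 and -68. The Vegfa and Eno2 windows hold neither motif, which says only that these letters are not in them.

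The authors deposited RPKM, which here are per kilobase of the whole genomic span of a gene, introns included, and scaled to the reads of the library. Reads per gene could be recovered from them, from 7255618 to 7686802 reads on genes per ESC + F/H-BAZ2ArWT library and from 6560881 to 8662855 reads per ESC + F/H-BAZ2ArΔTAM library. Transcripts of Baz2a, which can come from the endogenous gene and from the transgene, were at 10.5 ± 0.529 RPKM (SD, n = 4) in ESC + F/H-BAZ2ArWT and 18.3 ± 0.824 RPKM in ESC + F/H-BAZ2ArΔTAM, so that the lines also differ in the amount of this mRNA. For the protein, the paper reports similar BAZ2A levels in both lines by western blot. All 8 ESC markers were measured, their sum being 100.1 to 102.4 RPKM in ESC + F/H-BAZ2ArWT and 79.5 to 85.3 RPKM in ESC + F/H-BAZ2ArΔTAM, with 4 of 8 lower (50%, against 15.9% of all genes tested). The 6 markers of fibroblasts summed to at most 0.131 RPKM in any library, with Dcn and Lum at 0 in all, and the 6 of primitive endoderm to at most 0.0463 RPKM. The 6 of trophectoderm summed to 1.35 to 1.38 RPKM and 1.39 to 1.69 RPKM, with none at 0 in all libraries, and of 3 tested 1 was higher and 1 lower. The lower one was Eomes, whose call was lost in 6 of the 8 fits without 1 library (limma adjusted p = 0.0591 to 0.0901). Markers of 2-cell-like cells, a rare state of ESC cultures, summed to 0.303 to 0.392 RPKM and 1.82 to 2.06 RPKM over 6 genes, and all 5 tested were higher in ESC + F/H-BAZ2ArΔTAM, through which they reached the minimum level for the test. The part of these states in the results was not tested, and in bulk RNA fewer cells of a type and less RNA per cell cannot be told apart.

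Fewer of the members rose than fell in ESC + F/H-BAZ2ArΔTAM, and the largest changes were in Pfkp, Vegfa and Pdk1. All 38 were above 0 in every library. A mean of 0.1 RPKM was reached by 30 of them, and 8 were under this minimum and not tested (Ankrd37, Bnip3, Egln3, Mxi1, Ndrg1, P4ha2, Pfkfb3 and Pfkfb4). Fold changes were fitted by limma on log2(RPKM + 0.1) across 9000 genes. At an adjusted p under 0.05, 11 of the 30 members (36.7%) differed, against 35.8% of all genes tested, so that their share is close to the background. By direction, 9 of 30 members were lower, against 15.9% of all genes, and 2 (6.67%) were higher, against 19.9%. The median log2 fold change was -0.063 over the 30 members and 0.011 over all genes tested. In 11 members every ESC + F/H-BAZ2ArΔTAM library was below every ESC + F/H-BAZ2ArWT library, and in 2 every one was above, against 16.7% and 20.5% of all genes (37.2% in either direction). At the thresholds of the study, a change of at least 0.58 on the log2 scale in either direction and an unadjusted p under 0.05, Pfkp alone passed, against 3.79% of all genes tested. This count depends on the added 0.1 RPKM, since with 0.01 RPKM and by limma voom on recovered reads Pdk1 (-0.65 and -0.67) and Vegfa (-0.62 and -0.63) passed too, and P4ha2 (0.61) by voom. With 1 RPKM added, Pfkp no longer passed. Of all reads on genes, the 38 members took 1.20 to 1.31% in ESC + F/H-BAZ2ArWT and 1.14 to 1.20% in ESC + F/H-BAZ2ArΔTAM.

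**Figure D1:**
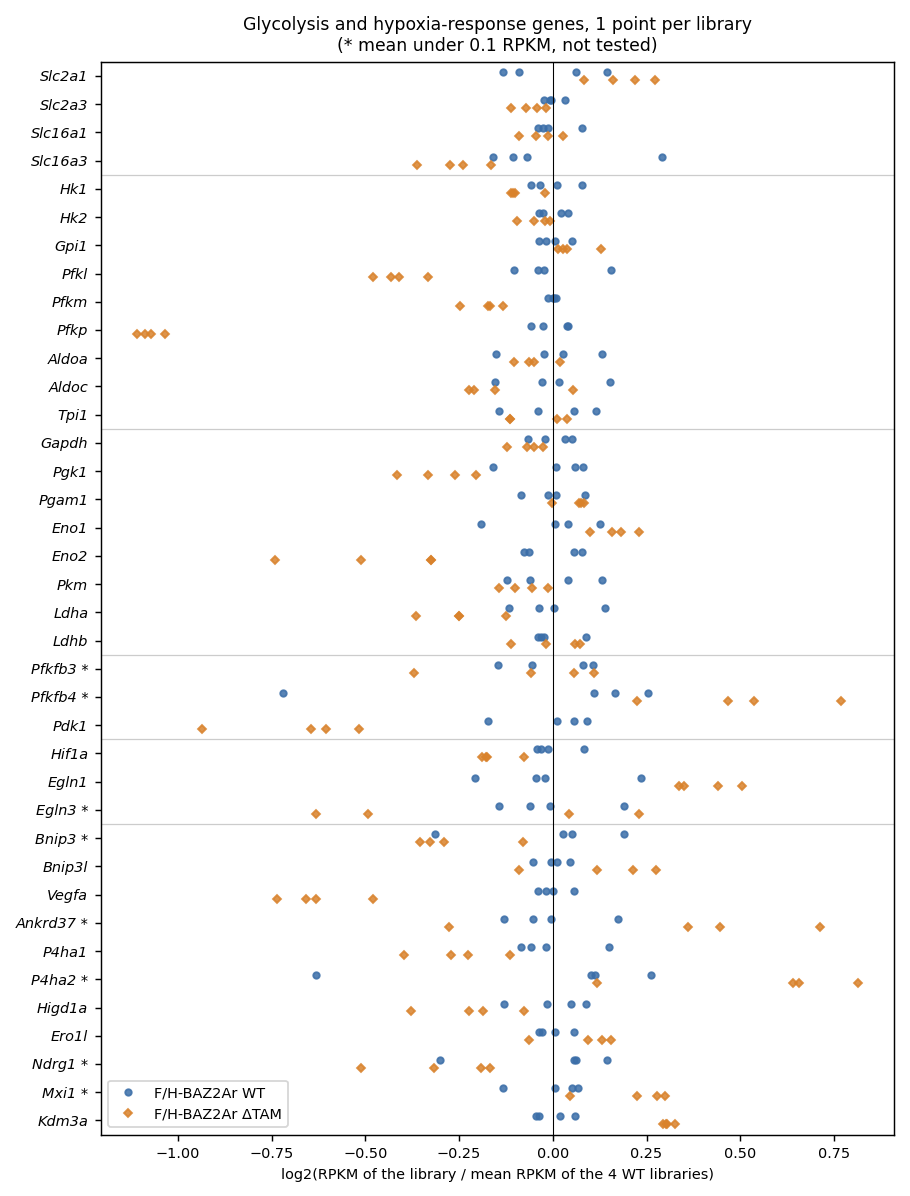
Each point is the RPKM of 1 library over the mean of the 4 WT libraries, on a log2 scale, for each of the 38 genes, with circles for WT, diamonds for ΔTAM, grey lines between functional classes and an asterisk on the 8 genes too low to test. The ΔTAM points of Pfkp, Vegfa, Pdk1, Pfkl and Eno2 lie left of all WT points, those of Kdm3a and Egln1 lie right of them, and most other genes overlap.

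None of the 4 carriers passed the test. Slc2a3 (GLUT3), the high-affinity glucose carrier of early embryos, was the more abundant of the glucose carriers, at 342 ± 5.31 exonic RPKM (RPKM recomputed per kilobase of exon, SD, n = 4) in ESC + F/H-BAZ2ArWT against 56.2 ± 4.94 for the basal carrier Slc2a1 (GLUT1). Slc2a1 was 0.941, 1.04, 1.11 and 0.913 RPKM in the ESC + F/H-BAZ2ArWT libraries and 1.06, 1.21, 1.17 and 1.12 RPKM in the ESC + F/H-BAZ2ArΔTAM libraries, in replicate order. The highest ESC + F/H-BAZ2ArWT library lay above the lowest of the other line, and the log2 fold change of 0.17 (standard error, SE, 0.064, and limma adjusted p = 0.0730) missed the threshold. Without ESC + F/H-BAZ2ArWT replicate 3 it was 0.22 with an adjusted p of 0.0317 by limma, but it was not called in the other fits without 1 library. Slc2a3 was 4.91, 5.11, 4.97 and 4.98 RPKM and 4.62, 4.85, 4.93 and 4.75 RPKM, overlapping by 1 library, with a log2 fold change of -0.059 (95% interval -0.12 to 0.0023, limma adjusted p = 0.121). With quantile normalization Slc2a3 was called, at -0.092 (limma adjusted p = 0.0255). The monocarboxylate carriers move lactate and pyruvate, Slc16a1 (MCT1) in most cells and Slc16a3 (MCT4) mostly outward from glycolytic ones. Slc16a1 was at 1.50 ± 0.0558 RPKM and 1.47 ± 0.0502 RPKM, a difference within the spread of the libraries. Slc16a3 was low, 0.187, 0.199, 0.255 and 0.194 RPKM against 0.163, 0.177, 0.173 and 0.186 RPKM. Each ESC + F/H-BAZ2ArΔTAM library was below each ESC + F/H-BAZ2ArWT library, 1 of which stood well above the rest, yet the log2 fold change of -0.16 had an adjusted p of 0.109 by limma. With 1 library left out it ran from -0.20 to -0.095 and was never called. Here and below, values after ± are SDs over 4 libraries.

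In upper glycolysis, all 3 subunit genes of phosphofructokinase, the committed step, fell and none of the other 6 enzymes passed the test. These 3 of 9 (33.3%) stand beside 35.8% of all genes tested, and a difference between steps was not tested. Pfkp, the platelet-type subunit (chromosome 13, 6579768 to 6648777, mm10), was 1.44, 1.47, 1.54 and 1.54 RPKM in the ESC + F/H-BAZ2ArWT libraries. In the ESC + F/H-BAZ2ArΔTAM libraries it was 0.704, 0.712, 0.693 and 0.731 RPKM, which is 47.5% of the former mean. The ranges lay far apart, and the change was the largest of the 30 members tested, with a log2 fold change of -0.98 (SE 0.030, limma adjusted p = 2.96e-06) and within -0.996 to -0.965 when any 1 library was omitted. The reads behind it were 4933 to 5484 and 2151 to 2930 per library.

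Pfkl, the liver-type subunit (chromosome 10, 77986947 to 78010083), was 1.13, 1.15, 1.30 and 1.09 RPKM and 0.837, 0.926, 0.864 and 0.878 RPKM. The lowest ESC + F/H-BAZ2ArWT library was above the highest of the other line, and ESC + F/H-BAZ2ArWT replicate 3 was the highest of its line. The log2 fold change was -0.37 (SE 0.055, limma adjusted p = 0.00161), and the mean of ESC + F/H-BAZ2ArΔTAM was 75.2% of that of ESC + F/H-BAZ2ArWT. Pfkm, the muscle-type subunit (chromosome 15, 98092589 to 98132447), was 0.380, 0.383, 0.385 and 0.384 RPKM and 0.349, 0.341, 0.340 and 0.323 RPKM. Its ESC + F/H-BAZ2ArWT libraries were the tightest of all members (coefficient of variation 0.579%), and its smaller change of -0.14 (SE 0.026, limma adjusted p = 0.00431) was without overlap. Per exon kilobase, Pfkp was the more abundant of Pfkp and Pfkl in ESC + F/H-BAZ2ArWT, at 51.8 ± 1.83 against 27.2 ± 2.09 exonic RPKM (SD, n = 4). In ESC + F/H-BAZ2ArΔTAM these levels were 24.5 ± 0.568 and 20.4 ± 0.799, while the reads were 2151 to 2930 for Pfkp and 875 to 1180 for Pfkl. Exon lengths were the union of all exons of a gene in GENCODE vM21, 13401 bases for Pfkp and 6675 for Pfkl. This union can be longer than any 1 mRNA, so that exonic RPKM compare different genes only roughly. Lengths were matched for 34 of the 38 members, not for Pfkm, Pgam1, Ndrg1 and Mxi1.

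The other 6 enzymes of the upper part stayed within or near the spread of the libraries. The hexokinases Hk1 (0.212 ± 0.00880 RPKM and 0.200 ± 0.00612 RPKM) and Hk2 (1.30 ± 0.0333 RPKM and 1.27 ± 0.0339 RPKM) had log2 fold changes of -0.056 and -0.039. Glucose-6-phosphate isomerase Gpi1 was at 2.44 ± 0.0652 RPKM and 2.53 ± 0.0936 RPKM. Both groups overlapped for these genes, as they did for the aldolases Aldoa and Aldoc and for triose-phosphate isomerase Tpi1. Of the members with an exon length, the aldolase Aldoa was the highest by exonic RPKM, at 446 ± 35.1 and 430 ± 15.1 (SD, n = 4). By deposited RPKM, Gapdh was higher in ESC + F/H-BAZ2ArWT, at 44.1 against 35.1 for Aldoa. The log2 fold change of Aldoa was -0.046 (95% interval -0.18 to 0.090). Aldoc, the brain-type aldolase, had -0.12 (95% interval -0.29 to 0.057) and Tpi1 -0.041 (95% interval -0.19 to 0.11). Those intervals do not exclude a fall of Aldoc as large as that of Pgk1 below.

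**Figure D2:**
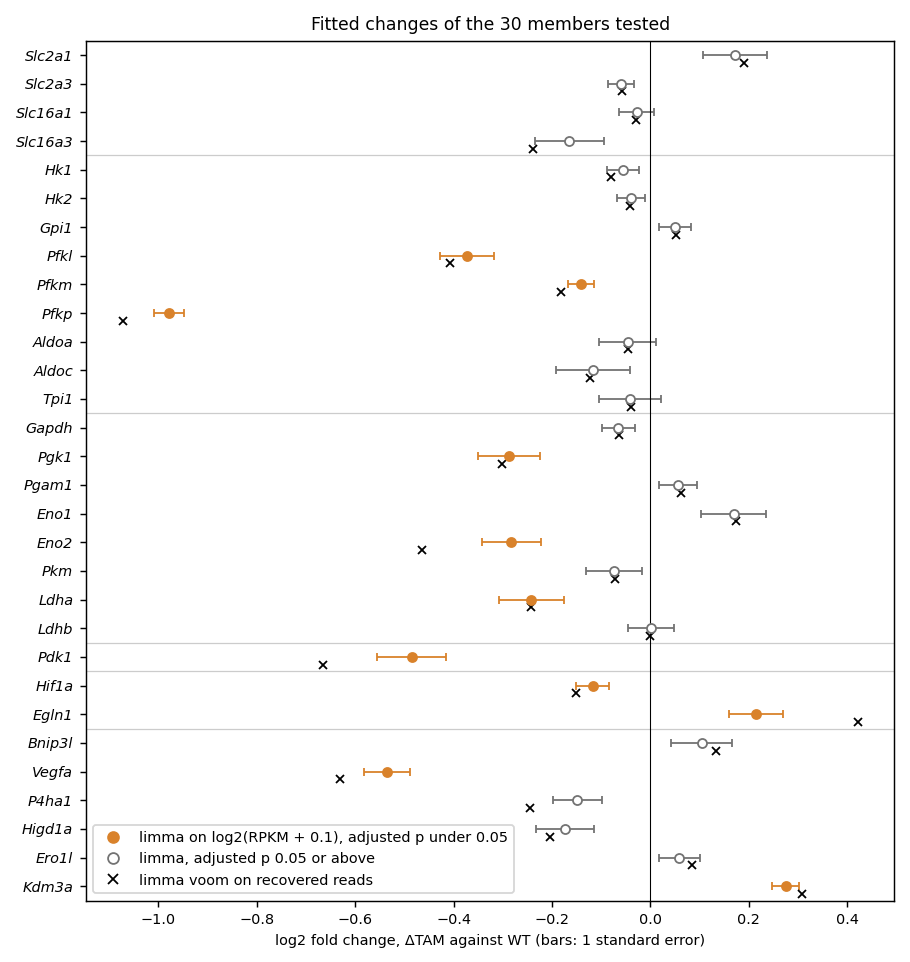
Points are log2 fold changes of the 30 tested genes from limma with bars of 1 standard error, filled where the adjusted p was under 0.05, and crosses are the values from voom on recovered reads. The filled points are 9 to the left of 0, led by Pfkp at -0.98, and 2 to the right, Kdm3a and Egln1.

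In the lower part, Pgk1, Eno2 and Ldha fell, and the other 5 genes did not pass the test (37.5% called, against 35.8% of all genes). Phosphoglycerate kinase Pgk1, the first ATP-yielding step (chromosome X, 106187100 to 106203699), was 2.33, 2.41, 2.45 and 2.07 RPKM in ESC + F/H-BAZ2ArWT and 1.84, 2.01, 1.93 and 1.74 RPKM in ESC + F/H-BAZ2ArΔTAM. The lowest ESC + F/H-BAZ2ArWT library, replicate 4, was only slightly above the highest of the other line. The log2 fold change was -0.29 (SE 0.063, limma adjusted p = 0.00968), and it was called in every fit without 1 library. Lactate dehydrogenase A, Ldha, which turns pyruvate into lactate (chromosome 7, 46841475 to 46855627), was 8.51, 8.74, 9.61 and 8.04 RPKM and 6.78, 8.01, 7.33 and 7.33 RPKM. Here the groups were nearly touching, at 8.04 and 8.01 RPKM. The log2 fold change of -0.24 (SE 0.066, limma adjusted p = 0.0241) lost its call without ESC + F/H-BAZ2ArWT replicate 2 or without ESC + F/H-BAZ2ArΔTAM replicate 1, 3 or 4, where the adjusted p was 0.0514 to 0.0563. Ldhb, the subunit that favours lactate use, was level, at 1.73 ± 0.0735 RPKM and 1.73 ± 0.100 RPKM. Its fitted change of 0.0015 had a 95% interval of -0.11 to 0.11 on the log2 scale, and its sign depended on the setting.

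Eno2, the neuronal enolase (chromosome 6, 124760053 to 124769673), was low, 0.188, 0.186, 0.171 and 0.169 RPKM and 0.143, 0.107, 0.142 and 0.125 RPKM, from 80 to 92 and 45 to 73 reads. The groups were apart, with ESC + F/H-BAZ2ArΔTAM replicate 2 the lowest of all, and the log2 fold change was -0.28 (SE 0.060, limma adjusted p = 0.00874). At such a level the added 0.1 RPKM shrinks the value, which was -0.46 by voom. Eno1, the ubiquitous and by far the more abundant enolase of the pair, was 7.73, 7.55, 8.20 and 6.58 RPKM and 8.05, 8.81, 8.38 and 8.53 RPKM. The groups overlapped by 1 library, ESC + F/H-BAZ2ArWT replicate 3, without which the log2 fold change went from 0.17 (limma adjusted p = 0.0810) to 0.21 with an adjusted p of 0.0424 by limma. In the other 7 of 8 fits without 1 library Eno1 was not called, with a change down to 0.11 and a limma adjusted p up to 0.170. Reads of Eno1 can be split with the near-identical retrocopy Eno1b, which had 4.47 ± 0.491 RPKM and 4.91 ± 0.0742 RPKM, so that the Eno1 value is uncertain. Gapdh, at 42.1 to 45.7 and 40.5 to 43.3 RPKM, had a log2 fold change of -0.066 (95% interval -0.14 to 0.012, limma adjusted p = 0.164), and its call depended on scaling, the adjusted p being 0.0116 with quantile normalization, which also called Eno1 (0.0294). Pyruvate kinase Pkm was 11.5 ± 0.896 RPKM and 10.9 ± 0.424 RPKM, and phosphoglycerate mutase Pgam1 2.96 ± 0.144 RPKM and 3.08 ± 0.0827 RPKM, both with overlapping libraries and no call.

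**Figure D3:**
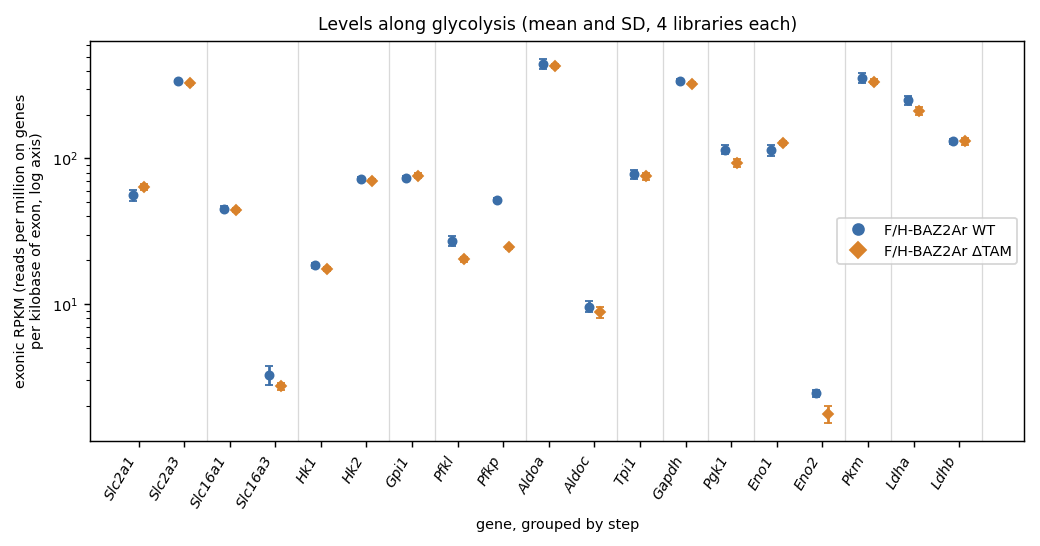
Points are means and bars SDs over 4 libraries of exonic RPKM on a log axis, for the carriers and enzymes with an exon length, grouped by step. Aldoa, Pkm, Slc2a3 and Gapdh lie at the top in both lines, and the WT and ΔTAM points part most at Pfkp (51.8 and 24.5).

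By level, the order in ESC + F/H-BAZ2ArWT was Aldoa (446), Pkm (356), Slc2a3 (342), Gapdh (341), Ldha (251), Ldhb (131), Pgk1 (115) and Eno1 (114), all in exonic RPKM. The order depends on the exon lengths used, since by deposited RPKM Gapdh (44.1) stood above Aldoa (35.1). Pkm, Slc2a3 and Gapdh were within 1 SD of each other, as were Pgk1 and Eno1. Tpi1 (77.7), Gpi1 (73.8) and Hk2 (72.5) formed a next tier, also within their spread, and Hk1 was lower at 18.5. The isozymes of the brain and nerve type, Aldoc (9.63) and Eno2 (2.45), were far below their ubiquitous counterparts.

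Ratios of paired members within a library do not depend on how that library was scaled, and they were compared over 12 pairs chosen by function. With 4 libraries against 4 there are 70 splits, and the smallest two-sided p of the exact permutation test is 0.0286. In 5 pairs the groups did not overlap and this smallest value was reached, with an adjusted p of 0.0686 over the 12 pairs, so that none passed 0.05. That value depends on how many pairs share the smallest p, so that no pair could pass alone, whatever its difference. With a pseudocount of 0.1 RPKM in the ratio, 7 pairs shared it and passed (adjusted p = 0.0490 by the permutation test). The log2 ratio of Pfkp to Pfkl was 0.34, 0.36, 0.24 and 0.50 in ESC + F/H-BAZ2ArWT and -0.25, -0.38, -0.32 and -0.26 in ESC + F/H-BAZ2ArΔTAM. The libraries of the lines were far apart, with a difference of -0.67 (SE 0.062). For Pfkm to Pfkl the difference was 0.23 (SE 0.069), the fitted fall of Pfkm being the smaller. Eno2 to Eno1 differed by -0.65 (SE 0.14), and Slc2a3 to Slc2a1 by -0.25 (SE 0.066), from 2.38, 2.29, 2.17 and 2.45 to 2.12, 2.00, 2.08 and 2.09. Ldhb to Ldha differed by 0.25 (SE 0.093), toward the subunit that favours lactate use. The remaining 7 pairs overlapped between the lines, with permutation p-values of 0.0571 to 0.40. In those 7 the differences ran from -0.62 for Egln3 to Egln1 to 0.85 for P4ha2 to P4ha1, with Hk2 to Hk1 at 0.041.

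**Figure D4:**
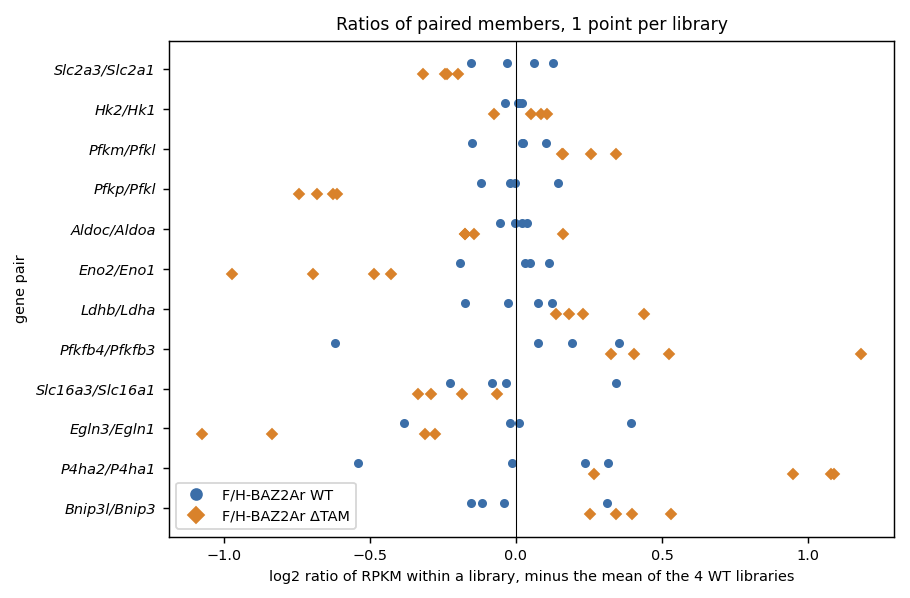
Each point is the log2 ratio of 2 genes in 1 library minus the mean ratio of the 4 WT libraries, with circles for WT and diamonds for ΔTAM. The groups are apart in 5 pairs (Slc2a3/Slc2a1, Pfkm/Pfkl, Pfkp/Pfkl, Eno2/Eno1 and Ldhb/Ldha).

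Of the flux regulators, Pdk1 alone was high enough to test. Pyruvate dehydrogenase kinase 1 restrains pyruvate dehydrogenase in the mitochondria. Pdk1 (chromosome 2, 71873224 to 71903858) was 0.346, 0.335, 0.355 and 0.295 RPKM and 0.174, 0.232, 0.219 and 0.213 RPKM, so that ESC + F/H-BAZ2ArΔTAM held 63.0% of the mean of ESC + F/H-BAZ2ArWT. The ranges did not meet, and ESC + F/H-BAZ2ArΔTAM replicate 1 was the lowest library. The log2 fold change was -0.49 (SE 0.070, limma adjusted p = 0.00150) and stayed between -0.53 and -0.43 with 1 library left out. Pfkfb3 and Pfkfb4, which make and remove the activator fructose 2,6-bisphosphate, were barely detected, with 44 to 58 reads and 26 to 87 reads per library. Pfkfb3 was alike in both lines (0.0127 ± 0.00103 RPKM and 0.0122 ± 0.00172 RPKM). Pfkfb4 was 0.0244, 0.0259, 0.0132 and 0.0235 RPKM and 0.0301, 0.0254, 0.0315 and 0.0370 RPKM, with overlapping groups.

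Hif1a and its hydroxylase Egln1 moved in opposite directions. Hif1a, the oxygen-regulated subunit (chromosome 12, 73901375 to 73947530), was 0.333, 0.335, 0.339 and 0.363 RPKM and 0.303, 0.301, 0.325 and 0.303 RPKM. The groups were apart, with ESC + F/H-BAZ2ArΔTAM replicate 3 near the other line, and the log2 fold change was -0.12 (SE 0.033, limma adjusted p = 0.0278). The call was lost without ESC + F/H-BAZ2ArWT replicate 3 or 4 or without ESC + F/H-BAZ2ArΔTAM replicate 1, 2 or 4, where the adjusted p was 0.0547 to 0.0704. Egln1 (PHD2), the main oxygen sensor that marks HIF1A for destruction (chromosome 8, 124908587 to 124949324), was 0.0928, 0.0815, 0.111 and 0.0913 RPKM and 0.119, 0.128, 0.134 and 0.120 RPKM. Every ESC + F/H-BAZ2ArΔTAM library was above every ESC + F/H-BAZ2ArWT library, and the log2 fold change was 0.21 (SE 0.055, limma adjusted p = 0.0195, and 0.053 without ESC + F/H-BAZ2ArΔTAM replicate 3). The value was 0.42 by voom. Egln1 passed the minimum of 0.1 RPKM through ESC + F/H-BAZ2ArΔTAM, its mean in ESC + F/H-BAZ2ArWT being 0.0941 ± 0.0122 RPKM. Egln3 (PHD3), itself strongly induced by hypoxia, was 0.0736, 0.0843, 0.0668 and 0.0709 RPKM and 0.0525, 0.0477, 0.0867 and 0.0761 RPKM, too low to test. Its ESC + F/H-BAZ2ArΔTAM libraries were split, 2 below and 2 within or above the range of the other line.

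Among the 11 other hypoxia-response targets, 6 were tested, of which Vegfa fell and Kdm3a rose (33.3% called, against 35.8% of all genes). Vegfa, the angiogenic growth factor (chromosome 17, 46016993 to 46032369), was 0.731, 0.770, 0.721 and 0.741 RPKM in ESC + F/H-BAZ2ArWT and 0.531, 0.478, 0.445 and 0.469 RPKM in ESC + F/H-BAZ2ArΔTAM. All 4 libraries of the latter were well below, at 64.9% of the mean, with a log2 fold change of -0.54 (SE 0.046, limma adjusted p = 1.50e-04). Kdm3a, a histone H3 lysine 9 demethylase (chromosome 6, 71588972 to 71632990), was 0.748, 0.753, 0.783 and 0.805 RPKM and 0.954, 0.967, 0.946 and 0.952 RPKM. The ESC + F/H-BAZ2ArΔTAM libraries were higher and very close to each other, 124% of the ESC + F/H-BAZ2ArWT mean, with a log2 fold change of 0.27 (SE 0.027, limma adjusted p = 2.90e-04). Both were called in every fit without 1 library.

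The collagen prolyl hydroxylase subunit P4ha1 was 0.156, 0.160, 0.180 and 0.153 RPKM and 0.123, 0.150, 0.135 and 0.139 RPKM. The lines did not overlap, but the log2 fold change of -0.15 had an adjusted p of 0.0527 by limma, and 0.0418 without ESC + F/H-BAZ2ArΔTAM replicate 2. It was not called in the other fits without 1 library. The mitochondrial protein gene Higd1a was 0.464, 0.485, 0.499 and 0.429 RPKM and 0.361, 0.412, 0.402 and 0.445 RPKM, overlapping by 1 library, with a log2 fold change of -0.17 (limma adjusted p = 0.0532). It passed the test without replicate 4 of either line, with adjusted p-values of 0.0348 and 0.0334, and with quantile normalization (0.0381). The mitophagy receptor gene Bnip3l was 0.379 ± 0.0107 RPKM and 0.416 ± 0.0445 RPKM, with ESC + F/H-BAZ2ArΔTAM replicate 1 below the range of the other line and replicates 2 to 4 above it. Without that replicate its log2 fold change went from 0.10 to 0.16, with an adjusted p of 0.0181 by limma. In the other 7 of 8 fits without 1 library Bnip3l was not called, with a change down to 0.065 and a limma adjusted p up to 0.443. Ero1l, an oxidase of the endoplasmic reticulum, was at 0.272 ± 0.00794 RPKM and 0.287 ± 0.0192 RPKM, also overlapping.

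Another 5 of these targets were too low for the test, at 13 to 361 reads per library. Bnip3 was 0.0549, 0.0426, 0.0604 and 0.0539 RPKM and 0.0414, 0.0501, 0.0422 and 0.0433 RPKM, and Ndrg1 had 38 to 49 and 32 to 47 reads. P4ha2 had means of 0.0267 and 0.0399 RPKM, with 27 to 52 and 40 to 86 reads. Mxi1, a MYC antagonist, had 248 to 299 and 295 to 361 reads, and Ankrd37 had 13 to 17 and 14 to 21. When the same fit was made with no minimum, none of the 8 low members had an adjusted p under 0.05, and 3 had an unadjusted p under 0.05 (Pfkfb4, P4ha2 and Mxi1). With limma voom on recovered reads, a model of counts that tests genes averaging at least 10 reads, all 38 members were tested and 19 called, 12 lower and 7 higher. The shares of all 12657 genes were 43.9% in either direction, 21.9% lower and 21.9% higher. The 11 calls made on RPKM were all among the 19. The added ones were Slc2a3, P4ha1 and Higd1a as lower and Slc2a1, Eno1, Pfkfb4, P4ha2 and Mxi1 as higher.

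Within ESC + F/H-BAZ2ArWT, most glycolytic enzymes were highest in 1 library and lowest in another, which is given as a description without a test, since the genes share the libraries. Of the 17 enzymes from hexokinase to lactate dehydrogenase, 12 had their highest ESC + F/H-BAZ2ArWT value in replicate 3 and 12 had their lowest in replicate 4, whereas over all genes tested these replicates were highest and lowest in 26.6% and 35.0%. In ESC + F/H-BAZ2ArΔTAM, replicate 2 was the highest for 10 of 17 and replicate 1 the lowest for 8 of 17, against 29.7% and 33.8% of all genes. The enzymes took 0.942% of the reads on genes in ESC + F/H-BAZ2ArWT replicate 3 and 0.832% in replicate 4, and 0.789 to 0.839% in the ESC + F/H-BAZ2ArΔTAM libraries. The highest of the latter, replicate 2, lies above the lowest ESC + F/H-BAZ2ArWT library, so that the sum over the pathway overlaps between the lines. Gene by gene the spread was small, with a median coefficient of variation over the 17 enzymes of 5.53% and 3.74%, against 6.22% and 6.24% over all genes tested.

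**Figure D5:**
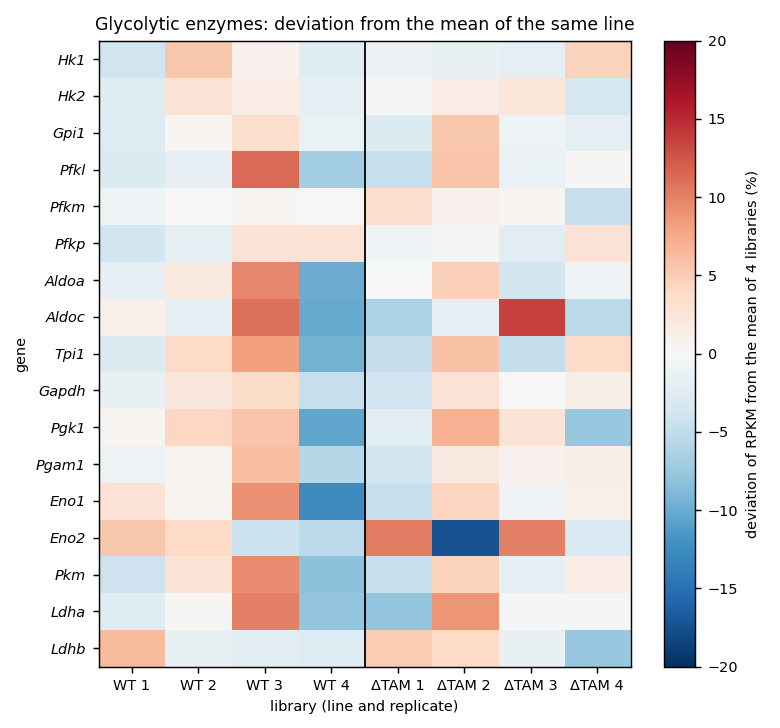
Colours give the deviation in percent of each library from the mean RPKM of the 4 libraries of its own line, for the 17 glycolytic enzymes, red above and blue below. WT replicate 3 is red and WT replicate 4 blue for most enzymes (each for 12 of 17 the highest or lowest library), whereas Eno2 and Ldhb are highest in replicate 1 and Hk1 and Hk2 in replicate 2.

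Neighbouring pathways were described through 7 lists of 121 further genes, of which 76 were tested, 11 called higher and 24 called lower (46.1% in all, against 35.8% of all genes). By direction, 14.5% were higher and 31.6% lower, against 19.9% and 15.9% of all genes tested. In at least 1 of the fits that leave out a library, 8 of these 35 calls were lost (Angptl4, Ep300, Idh3g, Ogdh, Plod2, Prps1, Sdhb and Taldo1), with limma adjusted p-values of 0.0540 to 0.0988. Ldhd was under the minimum, and so not tested, in 3 of these fits (without ESC + F/H-BAZ2ArWT replicate 1, 2 or 4). With the replicate number as a block, Ep300, Idh3g, Plod2, Prps1, Sdhb, Slc16a6 and Taldo1 lost their calls (limma adjusted p = 0.0556 to 0.113). Eloc gained a call (limma adjusted p = 0.0463). The 2 called genes with the largest change are given for each list, and any further ones were named after their values were seen, to complete a count. Among 14 other components of the HIF pathway, 10 were tested, 2 rose and 1 fell (30% called, against 35.8% of all genes). Vhl, which encodes the ubiquitin ligase subunit that removes hydroxylated HIF1A, was 0.535, 0.579, 0.546 and 0.619 RPKM in ESC + F/H-BAZ2ArWT and 0.897, 0.964, 0.858 and 0.846 RPKM in ESC + F/H-BAZ2ArΔTAM. The groups were far apart, with a log2 fold change of 0.57 (SE 0.053, limma adjusted p = 2.04e-04). Cited2, an inhibitor that competes with HIF1A for the coactivators p300 and CBP, was 2.80, 3.01, 2.96 and 3.00 RPKM and 2.06, 2.06, 2.44 and 2.03 RPKM, again without overlap, and fell by 0.44 on the log2 scale (SE 0.061, limma adjusted p = 0.00125). The other gene that rose was Ep300, the gene of p300 itself, with a log2 fold change of 0.16 (limma adjusted p = 0.0244).

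Of 32 further hypoxia-inducible genes, 15 were tested, 3 rose (20%, against 19.9% of all genes) and 6 fell (40%, against 15.9%). Stc2, a secreted glycoprotein gene, was 0.334, 0.354, 0.339 and 0.345 RPKM and 0.100, 0.129, 0.115 and 0.148 RPKM. All ESC + F/H-BAZ2ArΔTAM libraries were at less than the lowest of the other line, with a log2 fold change of -0.99 (limma adjusted p = 4.78e-05). Stc2 is induced by other cell stresses too. Tfrc, the transferrin receptor, was 2.11, 2.05, 2.06 and 2.04 RPKM and 3.53, 3.41, 3.52 and 3.45 RPKM, higher in every ESC + F/H-BAZ2ArΔTAM library, with a log2 fold change of 0.72 (limma adjusted p = 2.96e-06). The others that rose were Gys1 and Plod2, with log2 fold changes of 0.33 and 0.12 (0.19 by voom for Plod2). The others that fell were Ddit4, Bhlhe40, Wsb1, Hmox1 and Angptl4, with -0.60, -0.52, -0.49, -0.41 and -0.19.

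Among the 19 other isozymes of glycolysis, 14 were too low to test. Eno3, the muscle enolase, and Slc16a6 (log2 fold change 0.24, and 0.44 by voom) rose, and Ldhd fell, which is 60% of the 5 tested against 35.8% of all genes. Eno3 had 0.485 ± 0.0192 RPKM and 0.632 ± 0.0446 RPKM, a log2 fold change of 0.32 (limma adjusted p = 0.00176). Ldhd, which encodes a mitochondrial D-lactate dehydrogenase, was 0.151 ± 0.0347 RPKM and 0.0516 ± 0.0143 RPKM, a log2 fold change of -0.72 (limma adjusted p = 0.00266) that was -1.56 by voom, and it passed the minimum through ESC + F/H-BAZ2ArWT. In the list of gluconeogenesis and the glycerol phosphate branch, 2 of 7 tested genes fell and none rose (28.6% called, against 35.8% of all genes). They were Pck2, the mitochondrial phosphoenolpyruvate carboxykinase (2.55 ± 0.133 RPKM and 1.45 ± 0.106 RPKM), and G6pc3, a ubiquitous glucose-6-phosphatase (0.712 ± 0.0539 RPKM and 0.379 ± 0.0270 RPKM). Their log2 fold changes were -0.78 and -0.76, with adjusted p-values of 8.06e-05 and 9.62e-05 from limma.

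The pentose phosphate pathway, which leaves glycolysis at glucose 6-phosphate and yields NADPH and ribose, had 2 genes higher and 3 lower of 10 tested (20% and 30%, against 19.9% and 15.9% of all genes). Pgd, its second dehydrogenase, was 2.10, 2.11, 2.23 and 2.04 RPKM and 2.97, 3.27, 3.11 and 3.30 RPKM. Each ESC + F/H-BAZ2ArΔTAM library was above each ESC + F/H-BAZ2ArWT library, with a log2 fold change of 0.55 (limma adjusted p = 9.18e-05). Rpia, ribose 5-phosphate isomerase, rose from 0.0782 ± 0.00776 RPKM to 0.135 ± 0.00483 RPKM (log2 fold change 0.40, limma adjusted p = 5.32e-04, and 0.79 by voom), and it passed the minimum through ESC + F/H-BAZ2ArΔTAM. The 3 that fell were Prps2, Prps1 and Taldo1, with -0.28, -0.14 and -0.10. For the entry of pyruvate into mitochondria, 1 of 10 tested genes rose and 2 fell (30% called, against 35.8% of all genes). Pdp2, a phosphatase that activates pyruvate dehydrogenase and so acts against the kinase encoded by Pdk1, was 1.22, 1.30, 1.24 and 1.23 RPKM and 1.99, 2.04, 1.97 and 1.96 RPKM. The rise was seen in all 4 ESC + F/H-BAZ2ArΔTAM libraries, with a log2 fold change of 0.63 (limma adjusted p = 1.33e-05). Dld, the E3 subunit shared by the dehydrogenase complexes, was 0.780 ± 0.0393 RPKM and 0.646 ± 0.0239 RPKM (log2 fold change -0.24, limma adjusted p = 0.00310), and Dlat, the E2 subunit, had -0.19. Of the tricarboxylic acid cycle, 9 of 19 tested genes fell (47.4%, against 15.9% of all genes) and 1 rose, the 2 largest changes being Idh2 (-0.38) and Dlst (-0.34), with adjusted p-values of 1.83e-04 and 2.77e-04 from limma. The gene that rose was Mdh2 (0.20).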

How the data were processed

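RNA of both E14 lines was polyA-selected, prepared with the TruSeq Stranded kit and sequenced single-end. The authors removed ribosomal reads, trimmed, aligned the reads to mm10 with STAR, derived a coverage of exons and deposited unpooled RPKM, 1 column a library. The submitters' processing notes name FastQC, Trimmomatic 0.36, STAR and DESeq2. The annotation release, strand use and handling of multi-mapped reads are not given in the sources used here, so that values of paralogs and overlapping genes are uncertain.

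Of 51288 entries, 50902 genes were kept after repeats were set aside. Multiplied by genomic span, RPKM stepped by a fixed amount within a library, taken as 1 read: 99.6% of values above 0 and under 1000 reads were within 0.05 of a whole read. Fold changes were fitted on log2(RPKM + 0.1), which understates changes of low genes, for 9000 genes averaging 0.1 RPKM or more, by limma 3.58.1 in R 4.3.3 (lmFit, eBayes with trend, no covariate), with Benjamini-Hochberg adjustment over all of them. Ratios of pairs were compared by an exact two-sided permutation test (Python 3.11.15). The fits were also run on simulated counts with the same dispersion for every gene and few changed genes, unlike these data, and nothing is concluded from that. Alternatives were the pseudocount, the filter, the scaling, the variance model, a replicate block, each library left out and limma voom on recovered reads. Every member was named, and of each pathway list the 2 called genes with the largest change. The members and lists were chosen with earlier results of these data known.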

Additional observations from a re-analysis of the deposited data

Results flagged for a closer look

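In 4 of 76 groups of 4 libraries (each member in each line), 1 library stood apart, its gap to the nearest other library divided by the range of the group being above Dixon's 95% critical value, which chance gives in about 1 of 20 groups. For Hk1 this was ESC + F/H-BAZ2ArΔTAM replicate 4 (0.209 RPKM against 0.198 for the nearest library, gap over range 0.874). For Pgam1 it was ESC + F/H-BAZ2ArΔTAM replicate 1 (2.96 against 3.11 RPKM, 0.841). For Ldhb it was ESC + F/H-BAZ2ArWT replicate 1 (1.84 against 1.70 RPKM, 0.878). For Hif1a it was ESC + F/H-BAZ2ArΔTAM replicate 3 (0.325 against 0.303 RPKM, 0.890), without which the log2 fold change of Hif1a was -0.14, the most negative value with 1 library left out.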

How the results depend on the processing

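Of 654 comparisons of a value with its alternative, 612 kept direction and side of the threshold, 22 gained a call, 12 lost one and 8 reversed. A minimum of 1 RPKM, which tests fewer genes, left 590 genes higher and 399 lower (main 1790 and 1435), 0 members higher and 4 lower (2 and 9), and 4 pathway genes higher and 13 lower (11 and 24). Voom on recovered reads, which tests more genes, called 2773 genes higher and 2778 lower, 7 members and 17 pathway genes higher and 12 and 32 lower, and put 1 member above and 3 below the thresholds of the study. Below these thresholds were 3 members with a pseudocount of 0.01 and 0 with 1. Quantile normalization turned the split of all calls to 1568 higher and 1722 lower, with 3 members higher and 12 lower. With 1 library left out, 1 to 4 members were higher (4 without ESC + F/H-BAZ2ArWT replicate 3, 1 without ESC + F/H-BAZ2ArΔTAM replicate 3) and 7 to 9 lower. Of the pairs, 7 passed with a pseudocount of 0.1 RPKM in the ratio and none without. With it, the permutation p of Pfkfb4 to Pfkfb3 and of P4ha2 to P4ha1 went from 0.0571 to 0.0286. The smallest p was then shared by 7 pairs, and its adjusted value in the permutation test went from 0.0686 to 0.0490. Ldhb reversed to -0.046 with quantile normalization, to -0.00080 by voom and within -0.022 to 0.037 with 1 library left out, and Pfkfb3 ran from -0.012 to 0.0044. With the replicate number as a block, 1557 genes were higher and 1239 lower, and 3 members higher (Slc2a1 gained, adjusted p = 0.0347) and 8 lower (Hif1a lost, adjusted p = 0.0676, both by limma). Same-numbered libraries correlated at 0.062, 0.033, 0.024 and 0.055 in their deviations, and not every library correlated best with its own number, so that the numbers were not taken to pair them; within them the smallest p for a pair of genes is 0.125. The minimum is on RPKM per genomic span and not on depth: the 8 members under it had 13 to 361 reads per library, and Eno2, tested and called, 45 to 92. Depth limits Ankrd37 most, at 13 to 21 reads.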
